A study of Homo sapiens with 4 samples.

Results

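The vacuolar H+-ATPase (V-ATPase), the resident proteins of the lysosomal membrane and the MiT/TFE transcription factors were followed at the RNA level in RCC4 cells with and without PML silencing. The 37 genes were chosen by symbol from the 59050 genes of the count table, as every V0 and V1 subunit gene of the V-ATPase together with 15 genes named one by one. They comprise 9 V0 and 13 V1 subunit genes, the 2 accessory subunit genes ATP6AP1 and ATP6AP2, 6 genes of lysosomal membrane proteins, 4 of lysosomal channels and exchangers, and the 3 factor genes TFEB, TFE3 and MITF. The rule uses gene symbols and no measured value, though the genes were chosen with earlier results of these data known. RCC4 is an established human clear cell renal cell carcinoma line that lacks VHL function. All cells carried the Tet-pLKO-puro vector with a doxycycline-inducible hairpin, either shPML#1 against PML (shPML) or a scrambled sequence (shCtrl), and all were given doxycycline at 100 ng/ml for 96 h. The cells were bulk populations from 2 experiments with independent lentiviral infections, so that each of the 4 libraries is 1 experiment under 1 condition. A single hairpin was sequenced, so an effect of PML loss and of the hairpin's other targets cannot be told apart. Since RNA was taken from bulk cells, fewer cells of a kind and less RNA per cell cannot be told apart either.

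The V-ATPase pumps protons into lysosomes and other compartments. Its V1 sector in the cytosol hydrolyses ATP and turns a rotor, and its V0 sector in the membrane carries the protons. Several subunits are encoded by more than 1 gene, and the gene used differs between tissues: ATP6V0A4 and ATP6V1B1 are known for acid-secreting cells of the kidney and inner ear. LAMP1 and LAMP2 coat the inner face of the lysosomal membrane, and TFEB, TFE3 and MITF bind an E-box at many lysosomal genes. The activity of these factors is set largely by phosphorylation and by their place in the cell, which RNA counts do not measure.

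Between 27781193 and 69870617 reads were counted per library, least in shPML replicate 2. PML itself was at 93.1 and 136 CPM (counts per 1000000 counts of the library after TMM scaling) in shCtrl replicates 1 and 2, and at 54.9 and 87.6 CPM in shPML. Its level was lower in each shPML library than in either shCtrl library, with a log2 ratio of -0.76 (replicate 1) and -0.63 (replicate 2). It was not called without a block for the experiment (edgeR's adjusted p = 0.32) and was called lower with it (edgeR's adjusted p = 4.2e-07). All 8 markers of the line, PAX8 and VIM among them, were present in every library, with a summed level of 4551 to 7866 CPM. In its myeloid markers, 1 library stood apart. Of 16 markers of myeloid cells, 14 were above 1 CPM in shPML replicate 2, and their summed level was 307 CPM there against 0.907 to 2.33 CPM in the other 3 libraries. LYZ was at 85.4 CPM, CD14 at 42.8 CPM and CD163 at 23.2 CPM in that library, whereas C1QB was at 0 counts. The markers of other cells were mixed. PECAM1 was at 4.11 CPM and MYH11 at 2.76 CPM in shPML replicate 2, against at most 0.042 and 0.092 CPM in the other 3 libraries. The endothelial marker CDH5 had 0 counts in shPML replicate 2, and CD79A was at 0.218 CPM there. CD3E and UMOD had 0 counts in every library. ALB went the other way, at 3.18 CPM in shCtrl replicate 1, 3.78 CPM in shPML replicate 1 and 0 CPM in replicate 2 of both conditions. In all, 77 genes were above 5 CPM in shPML replicate 2 and under 0.5 CPM in each other library, and 0 genes were so placed in any of the other 3 libraries. Whether transcripts of myeloid or other cells have a part in any value of either replicate was not tested. Because the myeloid markers lie in shPML replicate 2, the ratio in replicate 1, which uses neither library of replicate 2, is given beside the results. The list of 16 markers was written after the levels of CD14 and PTPRC in that library had been seen.

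**Figure D1:**
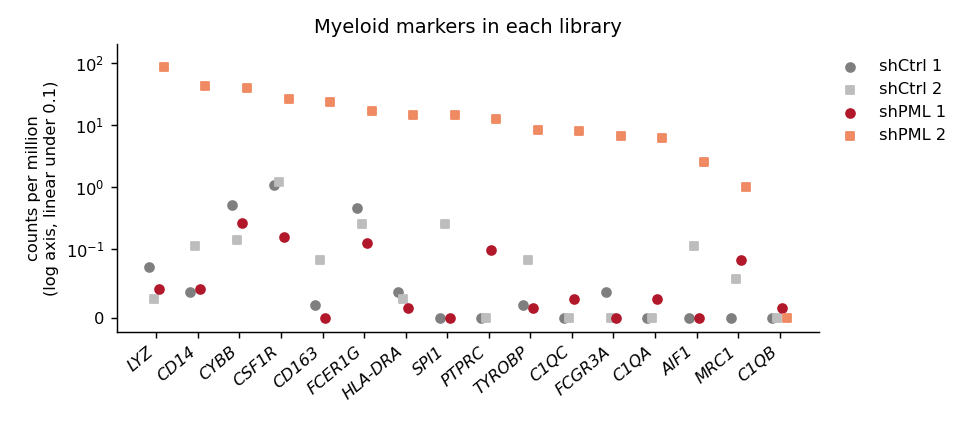
Level of each of 16 myeloid cell markers, in CPM on a log axis that is linear under 0.1, with 1 point per library. shPML replicate 2 lies above the other 3 libraries for every marker but C1QB, which is at 0 counts there.

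Of the 37 genes, 34 had enough counts to be tested by edgeR's filter on low counts. ATP6V1B1, the kidney form of the V1 B subunit, had 2 counts in each library of replicate 2 and 0 in replicate 1. ATP6V1G3, a V1 G form also known from kidney, had 0 counts in all 4 libraries. LAMP3, a membrane protein of dendritic and lung cells, had 14 counts in shPML replicate 2, the library with the myeloid markers, and 0 in the others. A further 4 genes were tested on very few counts. ATP6V0C, which encodes the main proteolipid of the V0 rotor, had only 13 to 20 counts per library, and 76.3% of its annotated exon bases are shared with other genes of the same strand, so its counts cannot be read as its level. ATP6V0D2, ATP6V1C2 and ATP6V1G2 reached at most 42, 253 and 53 counts.

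The levels of the members spanned a wide range. Per kilobase of annotated exon bases, LAMP1 was highest in shCtrl with a mean of 192 CPM per kb, followed by CD63 with 177 and ATP6V1F with 136 CPM per kb. Among the V-ATPase genes, ATP6V0E1, ATP6V1B2 and ATP6V1E1 came next at 116, 107 and 106 CPM per kb. TFE3, at 56.6 CPM per kb, was the most abundant of the 3 factor genes, ahead of MITF with 14.9 and TFEB with 2.14 CPM per kb.

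The silencing of PML went with a fall of a few members and a smaller rise of others, and not with a shift of the whole group in 1 direction. Without a block for the experiment, edgeR's quasi-likelihood test called 1 of the 34 members lower and 0 higher (calls needed a log2 fold change beyond 0.5 and an adjusted p under 0.05). Of all 16516 genes tested, 0.33% were called lower and 0.0787% higher in that fit, and 9 members had an unadjusted p under 0.05. The 2 experiments differed, and with the experiment as a replicate block the test called 4 members lower (ATP6V0A4, ATP6V0E1, SCARB2 and TMEM192) and 4 higher (ATP6V0E2, ATP6V1C1, ATP6V1G1 and ATP6AP1). The background in that fit was 10.5% of all genes lower and 8.57% higher, so 4 of 34, or 11.8%, in each direction was close to the share among all genes. DESeq2 with the block called 4 lower and 4 higher too.

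**Figure D2:**
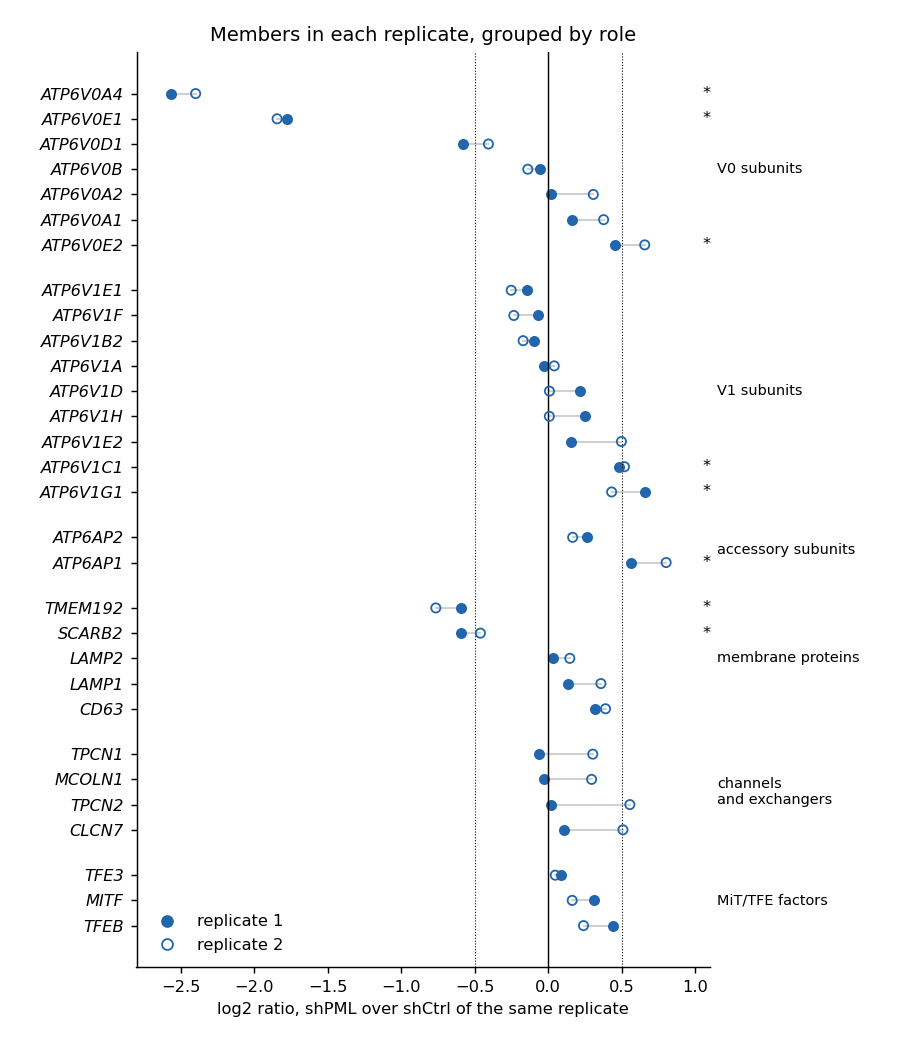
Log2 ratio of shPML over shCtrl within replicate 1 (filled) and replicate 2 (open) for the 30 members with at least 300 counts in some library, ordered within each role. Dotted lines mark -0.5 and 0.5, and stars mark the 8 members called with the replicate block. The points of ATP6V0A4 and ATP6V0E1 lie far to the left in both replicates.

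Within the replicates, 3 members (ATP6V0A4, ATP6V0E1 and TMEM192) had a log2 ratio under -0.5 in both, against 11.7% of all genes, and 2 (ATP6AP1 and the sparse ATP6V1C2) had one over 0.5 in both, against 9.37% of all genes. Both shPML libraries lay above both shCtrl libraries for 13 members (38.2%), where 23.1% of all genes did, and below them for 6 members (17.6%), where 24.9% of all genes did. The median log2 fold change of the members was 0.15, beside 0.01 over all genes tested. In replicate 1 alone their median log2 ratio was 0.06, and in replicate 2, which holds the library with the myeloid markers, it was 0.17. In replicate 1, 7 members (20.6%) were under -0.5 and 4 (11.8%) over 0.5, where 17.8% and 14.4% of all genes were, and of the 8 members called with the block the 4 lower ones and 2 of the 4 higher ones were among these.

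The V0 sector held the largest changes. ATP6V0A4 encodes the form of the a subunit, the part of V0 that lines the proton path, that is typical of acid-secreting cells (GRCh38 chr7:138706294-138798196, minus strand). It was at 8.61 CPM in shCtrl replicate 1, 8.14 CPM in shCtrl replicate 2, 1.44 CPM in shPML replicate 1 and 1.53 CPM in shPML replicate 2. The groups did not overlap, and the libraries within each group were close to each other. The log2 fold change was -2.50 (standard error, SE, 0.26, edgeR's adjusted p = 0.048), and with the replicate block -2.50 (SE 0.27, edgeR's adjusted p = 3.6e-11). The fall was as large in replicate 1, with a log2 ratio of -2.57, as in replicate 2 with -2.40. Its adjusted p without the block sat just under the threshold, and it was 0.050 with RLE in place of TMM scaling, 0.17 without shPML replicate 2, 0.21 without shCtrl replicate 1 and 0.39 without shCtrl replicate 2.

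ATP6V0E1 encodes the small e subunit of V0, which is expressed in most tissues (chr5:172983771-173035445, plus strand). Its level was 219 and 154 CPM in shCtrl replicates 1 and 2, and 64.0 and 42.9 CPM in shPML. Both shPML libraries were far below both shCtrl libraries, and in either condition replicate 2 was the lower one. The log2 ratio was -1.77 (replicate 1) and -1.84 (replicate 2). The fitted log2 fold change was -1.80 (SE 0.28, edgeR's adjusted p = 0.066), which missed the threshold, and with the replicate block it was -1.81 (SE 0.11, edgeR's adjusted p = 3.1e-21). Without the block it was called lower by DESeq2 (adjusted p = 7.6e-07) and by edgeR with no filter on low counts (adjusted p = 6.1e-14). It was not called by edgeR with RLE scaling (adjusted p = 0.068) or with at least 10 counts in every library (adjusted p = 0.051). No annotated exon of another gene overlaps its exons, and of its 4 pseudogene rows only 1 had any count, a single read in shCtrl replicate 1.

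ATP6V0E2, the second gene of the e subunit, moved the other way (chr7:149872968-149880698, plus strand). It was at 61.4 and 68.9 CPM in shCtrl and at 84.2 and 109 CPM in shPML, with no overlap between the groups. With the block the log2 fold change was 0.56 (SE 0.11, edgeR's adjusted p = 5.2e-05), and without it 0.57 (adjusted p = 0.21). The log2 ratio was 0.46 (replicate 1) and 0.66 (replicate 2). An antisense gene, ATP6V0E2-AS1, shares 21.4% of its exon bases on the other strand and had 55 to 142 counts, against 2482 to 6037 for ATP6V0E2.

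The opposite movement of both e genes changed their proportion. ATP6V0E1 gave 86.5% and 80.1% of the counts per kilobase of the e subunit in shCtrl replicates 1 and 2, and 57.8% and 41.6% in shPML. The share thus fell by 28.7 percentage points in replicate 1 and by 38.5 in replicate 2. In raw counts, not divided by length, it was 78.1% and 69.1% in shCtrl and 43.2% and 28.3% in shPML. The size of the shares therefore depends on the annotated lengths, but the direction does not. The rise of ATP6V0E2 did not make up for the fall of ATP6V0E1 at the RNA level: the summed level of both genes went from 157 to 68.8 CPM per kb in replicate 1 and from 120 to 64.1 CPM per kb in replicate 2, a log2 ratio of -1.19 and -0.90. The size of these ratios also depends on the lengths, which give the longer ATP6V0E2 less weight. The smallest two-sided p of an exact permutation test over these 4 libraries is 0.33, so no test is given for shares and sums.

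**Figure D3:**
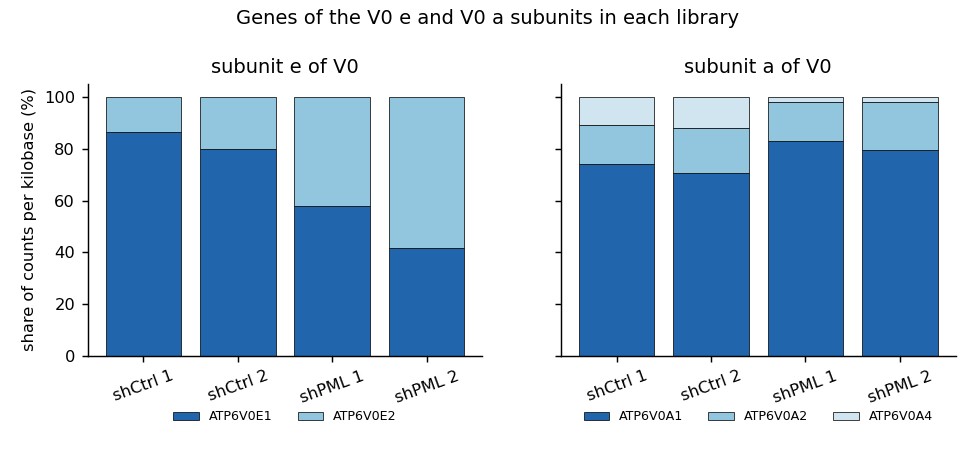
Share of the counts per kilobase, in percent, that each gene of the V0 e subunit (left) and of the V0 a subunit (right) took in each library. ATP6V0E1 goes from over 80% of the e subunit in both shCtrl libraries to 57.8% and 41.6% in shPML, and ATP6V0A4 from 10.8% and 12.0% of the a subunit to 1.80% and 1.95%.

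The a subunit gave another picture. ATP6V0A4 took 10.8% and 12.0% of its counts per kilobase in shCtrl and 1.80% and 1.95% in shPML, but it was a minor form in this line. ATP6V0A1, the most abundant a gene here, was at 68.1 and 55.0 CPM in shCtrl and at 76.0 and 71.4 CPM in shPML. ATP6V0A2, the form of the Golgi and endosomes, was at 24.2 and 23.4 CPM in shCtrl and at 24.5 and 29.0 CPM in shPML. Neither was called, with a log2 fold change of 0.27 and 0.16 in the fit with the block (edgeR's adjusted p = 0.070 and 0.39). In replicate 1 their log2 ratios were 0.16 and 0.02. The summed level of the 3 genes had a log2 ratio of -0.001 (replicate 1) and 0.21 (replicate 2).

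ATP6V0D1, the common form of the d subunit that couples the V0 rotor to V1, was at 104 and 97.8 CPM in shCtrl and at 69.4 and 73.8 CPM in shPML. The groups did not overlap. The log2 fold change was -0.50 with the block (SE 0.11, edgeR's adjusted p = 0.00025), so it passed the test but not the fold threshold. The log2 ratio was -0.58 (replicate 1) and -0.41 (replicate 2). ATP6V0B, a proteolipid of the rotor ring, was at 87.1 and 86.5 CPM in shCtrl and at 83.8 and 78.6 CPM in shPML (log2 fold change with the block -0.10, edgeR's adjusted p = 0.56, log2 ratio in replicate 1 -0.06). The osteoclast form ATP6V0D2 had 42 and 1 counts in shCtrl and 26 and 26 in shPML, and no direction can be read from them.

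In the V1 sector 2 of the 11 genes tested were called higher with the block, and 0 lower, where 8.57% and 10.5% of all genes were. ATP6V1C1 encodes the common form of the C subunit, which is released when V1 leaves V0. It was at 86.8 and 79.8 CPM in shCtrl and at 121 and 114 CPM in shPML. Both shPML libraries were above both shCtrl libraries by a similar factor, with a log2 ratio of 0.48 (replicate 1) and 0.52 (replicate 2). Its log2 fold change with the block, 0.50 (SE 0.11, edgeR's adjusted p = 0.00014), lay only just past the fold threshold. ATP6V1G1 encodes the common form of the G subunit of the stator stalks. It was at 46.8 and 51.7 CPM in shCtrl and at 74.0 and 69.7 CPM in shPML, and the groups did not overlap. Its log2 ratio was 0.66 (replicate 1) and 0.43 (replicate 2), and its log2 fold change with the block was 0.55 (SE 0.12, edgeR's adjusted p = 0.00012).

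The catalytic and central V1 genes were not called. ATP6V1A, the catalytic A subunit, was at 59.6 and 60.7 CPM in shCtrl and at 58.4 and 62.4 CPM in shPML, and the groups overlapped. ATP6V1B2, the B subunit of most cells, was at 331 and 281 CPM in shCtrl and at 310 and 250 CPM in shPML, with the larger difference between the experiments. The log2 fold changes with the block were 0.01 and -0.13 (SEs 0.11 and 0.10), and the log2 ratios in replicate 1 were -0.03 and -0.10. ATP6V1D, ATP6V1E1, ATP6V1E2, ATP6V1F and ATP6V1H, which encode rotor, stalk and regulatory subunits, had log2 fold changes with the block between -0.20 and 0.32, and 0 of them passed an adjusted p of 0.05.

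The sparse ATP6V1C2, a tissue-restricted form of the C subunit, differed most between the experiments. It had 108 counts in shCtrl replicate 1 and 253 in shPML replicate 1, but 1 and 4 counts in replicate 2. Reads of PDIA6, which shares 30.9% of the exon bases of ATP6V1C2 on the other strand and had 17886 to 54615 counts, could be counted there only if the counting ignored strand.

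Of the accessory subunits, ATP6AP1, which is needed for V-ATPase assembly and is found in the V0 complex (chrX:154428677-154436516, plus strand), had the largest rise among the members called higher. It was at 115 and 132 CPM in shCtrl and at 170 and 230 CPM in shPML. All shPML values were above the shCtrl values, most so in replicate 2. The log2 ratio was 0.56 (replicate 1) and 0.80 (replicate 2), and the log2 fold change was 0.70 (SE 0.20, edgeR's adjusted p = 0.18) without the block and 0.68 (SE 0.10, adjusted p = 1.7e-07) with it. ATP6AP2, also known as the prorenin receptor, was at 164 and 158 CPM in shCtrl and at 196 and 177 CPM in shPML, with a log2 fold change with the block of 0.22 (edgeR's adjusted p = 0.099) and a log2 ratio of 0.26 in replicate 1.

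**Figure D4:**
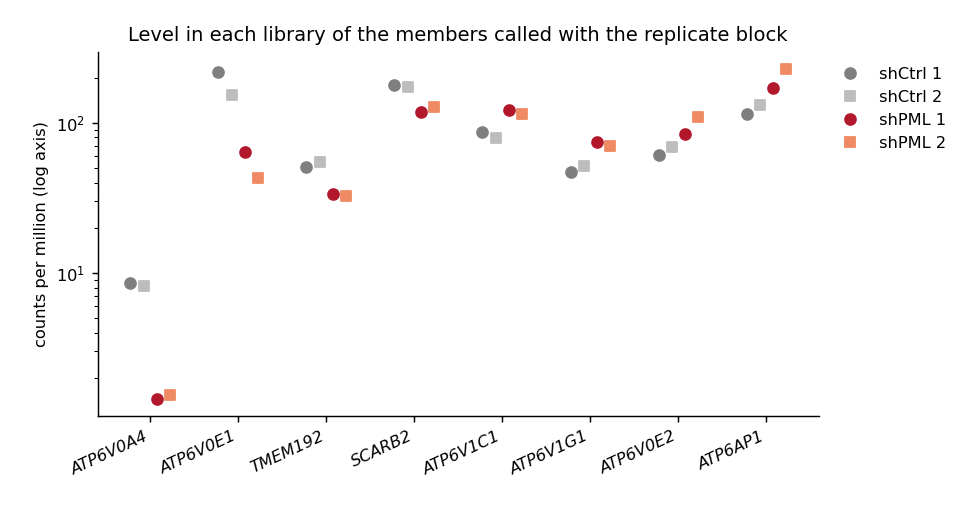
Level in CPM, on a log axis, of the 8 members called with the replicate block, with 1 point per library (circles for replicate 1, squares for replicate 2, grey for shCtrl, red and orange for shPML). The shPML points of the first 4 genes lie below both shCtrl points, and those of the last 4 above them.

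Among the 5 genes of lysosomal membrane proteins tested, 2 were called lower with the block and 0 higher (40% and 0%, beside 10.5% and 8.57% of all genes). SCARB2, or LIMP-2, carries glucocerebrosidase to the lysosome. It was at 178 and 174 CPM in shCtrl and at 118 and 127 CPM in shPML. The libraries of each group were close together, and the groups did not overlap. The log2 ratio was -0.59 (replicate 1) and -0.46 (replicate 2), and the log2 fold change was -0.52 (edgeR's adjusted p = 0.16) without the block and -0.53 (SE 0.10, adjusted p = 3.1e-05) with it. TMEM192 is a lysosomal membrane protein often used as a handle to isolate lysosomes. It was at 50.6 and 54.9 CPM in shCtrl and at 33.6 and 32.3 CPM in shPML, again with no overlap. The log2 ratio was -0.59 and -0.76, and the log2 fold change with the block -0.68 (SE 0.12, edgeR's adjusted p = 7.1e-06).

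The major coat proteins were not lower. LAMP1 was at 509 and 526 CPM in shCtrl and at 560 and 674 CPM in shPML. The shPML values were higher, by a log2 ratio of 0.14 (replicate 1) and 0.36 (replicate 2). Its log2 fold change with the block was 0.25 (SE 0.09, edgeR's adjusted p = 0.038), under the fold threshold. LAMP2 was at 316 and 318 CPM in shCtrl and at 324 and 352 CPM in shPML (log2 fold change with the block 0.09, edgeR's adjusted p = 0.53, log2 ratio in replicate 1 0.04). CD63, a tetraspanin of late endosomes, was at 454 and 363 CPM in shCtrl and at 568 and 476 CPM in shPML. Its log2 ratio was 0.32 (replicate 1) and 0.39 (replicate 2), and its log2 fold change with the block, 0.36 (SE 0.09, edgeR's adjusted p = 0.0021), was also under the fold threshold.

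None of the channels and exchangers was called, and their log2 ratios ran from -0.06 to 0.11 in replicate 1 and from 0.30 to 0.56 in replicate 2. CLCN7, the chloride and proton exchanger of lysosomes, was at 141 and 182 CPM in shCtrl and at 152 and 259 CPM in shPML. Its groups overlapped, and its log2 ratio was 0.11 (replicate 1) and 0.51 (replicate 2). The fit with the block gave 0.31 (SE 0.10, edgeR's adjusted p = 0.017), under the fold threshold. MCOLN1, the calcium channel TRPML1, was at 20.6 and 24.6 CPM in shCtrl and at 20.1 and 30.2 CPM in shPML. The two-pore channel TPCN1 was at 115 and 106 CPM in shCtrl and at 110 and 130 CPM in shPML, and TPCN2 was at 10.4 and 8.97 CPM in shCtrl and at 10.5 and 13.2 CPM in shPML. In replicate 1 the median log2 ratio of these 4 genes was -0.01 and in replicate 2 it was 0.41. None of the 4 was beyond 0.5 in replicate 1. Replicate 2 holds the library with 307 CPM of myeloid markers, and whether these have a part in its ratios was not tested.

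The RNA of the 3 MiT/TFE factors was not called in any fit. TFEB was at 8.22 and 10.9 CPM in shCtrl and at 11.2 and 12.8 CPM in shPML, without overlap of the groups. Its log2 ratio was 0.44 (replicate 1) and 0.24 (replicate 2), and its log2 fold change with the block 0.34 (SE 0.17, edgeR's adjusted p = 0.12). MITF, also the master factor of melanocytes, was at 78.2 and 104 CPM in shCtrl and at 97.2 and 116 CPM in shPML (log2 fold change with the block 0.24, SE 0.11, edgeR's adjusted p = 0.086). TFE3 was at 163 and 209 CPM in shCtrl and at 173 and 216 CPM in shPML, where the difference between the experiments was larger than that between the conditions (log2 fold change with the block 0.07, edgeR's adjusted p = 0.68). All 3 had positive ratios in both replicates, and in replicate 1 those of MITF and TFE3 were 0.31 and 0.08.

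The E-box that these factors bind has the letters CACGTG at its centre, and a longer form of it, TCACGTGA, is part of the lysosomal CLEAR element. Both words read the same on either strand, and each TCACGTGA contains a CACGTG. They were searched in the 250 bases before each transcription start, taken from RefSeq promoters of GRCh38.p14. Of 27305 genes with such a window, 7.73% held CACGTG and 1.04% held TCACGTGA. Among the 10632 of these genes that were also tested, the shares were higher, at 11.17% and 2.003%. Windows were at hand for 28 of the 37 members, of which 8 held CACGTG and 4 held TCACGTGA. Of the 26 members that were also tested, 30.8% and 15.4% did. With the block, the median log2 fold change was 0.28 for the 8 tested members with CACGTG and 0.12 for the 18 without. In replicate 1 the median log2 ratios were 0.12 and 0.05. Of the 8, 5 were higher in both replicates and 2 lower, and of the 18, 10 and 5. The difference between these members was not tested. ATP6V0E1, ATP6V0D2, ATP6V1A, ATP6V1B2, ATP6V1C1, ATP6V1E2, ATP6V1H, LAMP2 and LAMP3 had no window.

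The windows of 5 members with the word are shown 5′ to 3′ on the strand of the gene with CACGTG in capitals, since their RNA differed in direction.
LAMP1: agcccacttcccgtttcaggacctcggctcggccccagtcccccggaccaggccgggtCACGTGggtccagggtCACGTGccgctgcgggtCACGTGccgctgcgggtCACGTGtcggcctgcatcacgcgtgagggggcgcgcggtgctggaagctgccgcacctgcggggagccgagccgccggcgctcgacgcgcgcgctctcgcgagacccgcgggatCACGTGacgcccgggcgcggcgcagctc
MCOLN1: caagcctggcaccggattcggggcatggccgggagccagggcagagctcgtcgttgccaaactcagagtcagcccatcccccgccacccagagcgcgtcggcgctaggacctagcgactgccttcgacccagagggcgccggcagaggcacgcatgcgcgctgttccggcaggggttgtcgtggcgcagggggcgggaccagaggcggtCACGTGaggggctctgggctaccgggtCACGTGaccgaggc
ATP6V1G1: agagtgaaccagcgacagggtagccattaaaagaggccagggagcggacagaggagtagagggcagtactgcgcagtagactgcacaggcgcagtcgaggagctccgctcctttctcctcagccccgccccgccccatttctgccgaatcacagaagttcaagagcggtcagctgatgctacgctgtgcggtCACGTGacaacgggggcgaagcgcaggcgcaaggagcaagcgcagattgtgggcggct
ATP6V0D1: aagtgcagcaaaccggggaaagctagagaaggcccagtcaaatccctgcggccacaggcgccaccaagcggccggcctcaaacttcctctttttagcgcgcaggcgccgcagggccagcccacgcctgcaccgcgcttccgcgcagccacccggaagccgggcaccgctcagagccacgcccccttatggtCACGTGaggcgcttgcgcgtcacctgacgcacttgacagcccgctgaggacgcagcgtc
ATP6V0E2: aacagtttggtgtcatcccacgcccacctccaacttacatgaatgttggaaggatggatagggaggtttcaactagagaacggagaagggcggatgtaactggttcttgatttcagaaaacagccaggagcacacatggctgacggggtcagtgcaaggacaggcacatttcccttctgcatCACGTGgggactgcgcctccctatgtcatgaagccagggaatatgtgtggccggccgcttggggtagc
These lie at chr13:113296989-113297238 (plus strand), chr19:7522374-7522623 (plus), chr9:114587519-114587768 (plus), chr16:67481158-67481407 (minus) and chr7:149872714-149872963 (plus). The window of LAMP1 held 5 copies, and of the 27305 genes no other held 5 or more. That of MCOLN1 held 2, both within TCACGTGA. ATP6V1G1 and ATP6V0D1 each held 1 copy, within TCACGTGA, its first base 58 and 59 bases before the start. Their log2 fold changes with the block were 0.55 and -0.50. Of the members with the word that are not shown, ATP6V0B and CLCN7 held 2 copies each, and CD63 held 1 in the window of 1 of its starts. Whether the word has a part in any of these values was not tested. The single copy of ATP6V0E2 lay 68 bases before the start of the window shown and 72 bases before another start of the gene. The window of a further start of ATP6V0E2 did not hold the word. ATP6V0A4, ATP6AP1, SCARB2 and TMEM192 held neither word in their windows. A match of letters is not a site shown to be bound.

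Genes around these members were taken from 4 lists. The lists were drawn up with earlier results of these data known, so their shares of calls are a description and not independent support. Of 14 genes tested for V-ATPase assembly and regulation, 2 were higher and 2 lower with the block (0 in either direction without it), beside 8.57% and 10.5% of all genes, and the median log2 fold change was 0.04. In replicate 1 alone 3 were over 0.5 and 3 under -0.5. OSTM1, the partner of CLCN7, went from 64.7 and 70.5 CPM in shCtrl to 112 and 130 CPM in shPML, while CLCN7 itself was not called. Its log2 ratios were 0.79 and 0.88 in replicates 1 and 2. ROGDI, a subunit of the RAVE-like assembly complex, went from 1.74 and 3.67 to 4.21 and 5.31 CPM, with log2 ratios of 1.27 and 0.53 that differed widely. TMEM9B, a relative of the endosomal membrane protein TMEM9, was lower, from 26.1 and 32.0 to 16.7 and 16.6 CPM (log2 ratios -0.64 and -0.95). WDR7, which works with the DMXL proteins of the same assembly complex, was lower as well, from 17.7 and 19.9 to 9.86 and 13.7 CPM (log2 ratios -0.84 and -0.54).

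Of 27 other lysosomal membrane genes, 2 were higher and 3 lower with the block, and 0 were called without it. These are 7.41% and 11.1% of the list, close to the 8.57% and 10.5% of all genes. CD164, a sialomucin, was at 260 and 418 CPM in shCtrl and at 144 and 211 CPM in shPML (log2 fold change with the block -0.92, SE 0.10, edgeR's adjusted p = 1.8e-11), with a log2 ratio of -0.85 in replicate 1. SIDT2 and SLC17A5, the sialic acid transporter, had log2 fold changes of -0.85 and -0.69. SIDT2 had log2 ratios of -0.69 and -1.01 in replicates 1 and 2, and SLC17A5 had -0.97 and -0.38, the replicates of the latter differing widely. NPC1, the cholesterol transporter, was higher, at 415 and 299.8 CPM in shCtrl and at 513 and 494 CPM in shPML, with a log2 ratio of 0.30 (replicate 1) and 0.72 (replicate 2). LAPTM5, the other gene called higher, is a protein of blood cells, and its 1584 counts in shPML replicate 2 stood against 4, 11 and 33 counts in shCtrl replicates 1 and 2 and shPML replicate 1. That call rests on the library with the myeloid markers.

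Another list held genes of mTORC1, the growth kinase that phosphorylates TFEB, and of its regulators at the lysosome. It had 7 genes higher and 0 lower of 23 tested with the block (30.4% and 0%, beside 8.57% and 10.5% of all genes). Its median log2 fold change was 0.26, and 0 of its genes were called without the block. The medians within the replicates were 0.27 and 0.26. RRAGD, the Rag GTPase that is itself a target of MiT/TFE factors, was at 79.7 and 74.4 CPM in shCtrl and at 123 and 136 CPM in shPML. FNIP2, the folliculin partner, was at 44.9 and 34.1 CPM in shCtrl and at 67.4 and 67.6 CPM in shPML. TSC1, which restrains mTORC1, was at 43.7 and 31.3 CPM in shCtrl and at 62.6 and 59.1 CPM in shPML. For all 3 the groups did not overlap, and the log2 ratio in replicate 1 was 0.62, 0.59 and 0.52. The members of this list do not act in 1 direction: RRAGD promotes and TSC1 opposes mTORC1 activity. Both were among the 7 called higher, so that count gives no direction for mTORC1 activity. In replicate 1 alone, 7 of the 23 genes were over 0.5 and 0 under -0.5, where 14.4% and 17.8% of all genes were.

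Of 33 other genes listed as TFEB targets, 10 were higher and 1 lower with the block, and 0 higher and 1 lower without it, and the list's median log2 fold change was 0.26. The shares with the block were 30.3% and 3.03%, beside 8.57% and 10.5% of all genes. RRAGD and FNIP2 stand in this list too. GAA, the lysosomal acid alpha-glucosidase, went from 15.1 and 16.6 CPM in shCtrl to 33.1 and 59.1 CPM in shPML, with a log2 ratio of 1.13 (replicate 1) and 1.83 (replicate 2). PSAP, the precursor of the saposins, went from 1763 and 1284 to 3009 and 2434 CPM, and CTSB, the protease cathepsin B, from 609 and 485 to 1013 and 1022 CPM. Their log2 ratios in replicate 1 were 0.77 and 0.73. NEU1, the lysosomal sialidase, fell from 295 and 245 CPM in shCtrl to 93.5 and 82.3 CPM in shPML. Its log2 fold change was -1.62 (SE 0.18, edgeR's adjusted p = 0.048 without the block). In replicate 1 alone, 8 of the 33 genes were over 0.5 and 2 under -0.5, or 24.2% and 6.06%, beside 14.4% and 17.8% of all genes. The list thus held both a set of rising hydrolases and 1 that fell as strongly as ATP6V0E1 did.

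**Figure D5:**
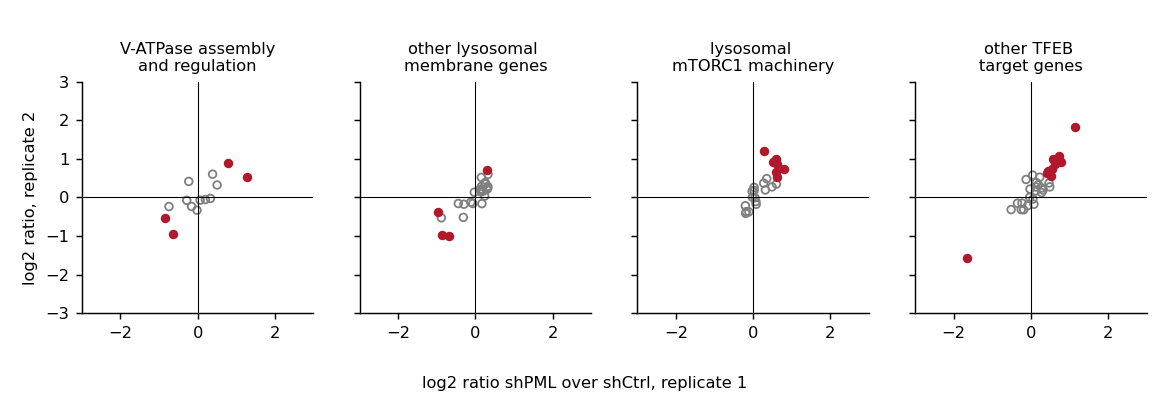
Log2 ratio of shPML over shCtrl in replicate 1 (horizontal) and replicate 2 (vertical) for the genes of 4 lists above 1 CPM in some library, with genes called with the replicate block filled. LAPTM5 (2.34 and 7.46) and GPNMB (2.28 and 3.49) lie beyond the axes and are not drawn. In the mTORC1 and TFEB target panels the called genes lie to the upper right, except NEU1 at the lower left.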

How the data were processed

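Per the methods, the authors prepared stranded mRNA libraries, trimmed single-end reads with Trimmomatic 0.39 and used STAR for alignment to GRCh38 and featureCounts 1.6.4 for counting on a Gencode release whose number is not given in the sources used here, nor is the strand setting. The deposited values were raw counts per gene. Columns of either condition that carried no number were taken as replicate 1, because the others carried the number 2. A record update states that labels of 2 samples had been swapped, and the corrected ones were used. Genes passing filterByExpr (16516 of 59050) were scaled by TMM and tested in R 4.3.3 with edgeR 4.0.16 (quasi-likelihood, Benjamini-Hochberg adjustment over all of them). Ratios within replicates used log2 CPM with a prior count of 1. Fits were tested on simulated data. The same replicate numbers mark the same experiment (correlation of deviations 0.544), so the fit with the replicate block stands beside the one without. With 2 libraries per group, p-values without the block measure the difference against the spread between these experiments. Those with the block measure it against how far the difference between the conditions varied between the 2 experiments. Both draw on a spread shared across genes (common dispersion 0.081 without the block and 0.014 with it). Alternatives were DESeq2 1.42.0 with and without the block, RLE scaling, other filters and fold thresholds, and each library left out. Named genes were all members, PML and, of each list, at most 3 genes per direction with the smallest adjusted p in the blocked fit. Members and lists were chosen with earlier results of these data known.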

Additional observations from a re-analysis of the deposited data

How the results depend on the processing

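Counts of calls depended strongly on the fit. The genes called higher and lower, 13 and 55 in the fit without a block, were 1415 and 1735 with the replicate block, 545 and 872 in DESeq2, 1098 and 1369 in DESeq2 with the block, 891 and 946 with no filter on low counts, 53 and 144 with at least 10 counts in every library, and 0 and 0 with RLE scaling, where 2967 genes had an unadjusted p under 0.05. Members called higher and lower, 0 and 1, were 4 and 4 with the replicate block in edgeR and in DESeq2, 1 and 3 in DESeq2 and with no filter, and 0 and 0 with RLE. Leaving out 1 library gave 0 to 187 genes higher, 0 to 61 lower, and 0 to 2 members lower, the highest values being those without shPML replicate 1. The median log2 fold change of the members ranged from 0.049 (without shPML replicate 2) to 0.21 (without shPML replicate 1). In replicate 1 alone, an alternative chosen after seeing the data, it was 0.060, and 4 members were over 0.5 and 7 under -0.5, against 2 and 3 that were so in both replicates. PML, at an adjusted p of 0.32 (log2 fold change -0.69) in the fit without a block, 0.25 in DESeq2 and 0.33 with RLE, reached 4.2e-07 (log2 fold change -0.70) with the block, 5.0e-07 (-0.69) in DESeq2 with the block and 0.024 (-0.68) with no filter. Its log2 fold change was -1.06 without shPML replicate 2, -0.92 without shCtrl replicate 1 and -0.40 both without shCtrl replicate 2 and without shPML replicate 1. With the block, the lists went from 0 to 2 higher and 0 to 2 lower (assembly), 0 to 2 and 0 to 3 (lysosomal membrane), 0 to 7 higher (mTORC1) and 0 to 10 higher (TFEB targets). The block changed no direction of a member, and 7 members gained a call with it. No blocked fit without 1 library was possible, since it leaves no residual degrees of freedom. Leaving out each library in turn, with the lone library of a group assumed to vary like the other group, turned the sign of 13 members that were not called in any fit. Their log2 fold changes ranged from -0.69 to 0.21 for ATP6V0C, -0.27 to 4.42 for ATP6V0D2, -0.040 to 0.046 for ATP6V1A, -0.30 to 0.017 for ATP6V1B2, -2.81 to 5.95 for ATP6V1C2, -0.11 to 0.32 for ATP6V1D, -0.49 to 0.059 for ATP6V1E1, -2.64 to 0.66 for ATP6V1G2, -0.063 to 0.31 for ATP6V1H, -0.16 to 0.41 for MCOLN1, -0.0032 to 0.23 for TPCN1, -0.084 to 0.67 for CLCN7 and -0.10 to 0.25 for TFE3. Of these, ATP6V0D2, ATP6V1A, ATP6V1B2, ATP6V1E1, ATP6V1G2, MCOLN1, TPCN1, CLCN7 and TFE3 turned without shPML replicate 2. The cause of these changes was not tested. Counts of 1 to 42 per library limit ATP6V0C and ATP6V0D2.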

Other observations

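Among the TFEB targets, the membrane glycoprotein gene GPNMB had a larger change than the genes given above. It was at 0.425 and 0.722 CPM in shCtrl and at 2.15 and 8.33 CPM in shPML, and its log2 ratio was 2.28 (replicate 1) and 3.49 (replicate 2). It was chosen after its values were seen, and it is also a gene of macrophages, whose markers were present in shPML replicate 2. Their part in its value there was not tested. In replicate 1, without that library, it was higher in shPML as well.

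CTSA encodes the protein that protects the sialidase NEU1 in the lysosome. Its level was 359 and 338 CPM in shCtrl and 484 and 546 CPM in shPML, with log2 ratios of 0.43 and 0.69, whereas those of NEU1 were -1.66 and -1.57. Of the 4 cathepsin genes in the TFEB target list, CTSA, CTSB and CTSD were called higher with the block. In that fit 30.3% of the whole list and 8.57% of all genes were. Their log2 ratios in replicate 1 were 0.43, 0.73 and 0.54. CTSF, with log2 ratios of -0.25 and -0.32, was not called. CTSA, CTSD and CTSF were likewise named after their values were seen.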
